A study of Mus musculus with 4 samples.

Results

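The interferon-induced genes are 34 genes of the mouse that cells switch on after they sense an interferon. They were chosen by gene name, and all 34 were found among the 55382 Ensembl genes of the deposited tables, each as 1 gene. Ribosome profiling sequences the mRNA fragments covered by ribosomes (footprints) and so reports how much of an mRNA is being translated. It was done on hearts of mice killed on day 15 after birth, in 2 libraries of control mice (WT in the titles, FF in the library names, NAT10-FF in the study's design) and 2 libraries of mice with a conditional knockout of Nat10 (KO, NAT10-CKO). Nat10 encodes an RNA acetyltransferase. The promoter that drives Cre, the part of Nat10 removed, the strain and the sex were not given in the sources used here. All 4 libraries share the treatment with cycloheximide at 100 µg/mL, which holds ribosomes in place, and carry 1 batch label. The labels call the cells cardiomyocytes, but about 100 mg of whole heart was lysed. In such bulk tissue fewer cells of a type and less RNA per cell cannot be told apart. No label says that the replicates are separate animals, so p-values cover the spread from library to library alone, and that spread could be technical.

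Interferons bind receptors on the cell surface, the receptors activate the kinases JAK1 and TYK2, and these phosphorylate STAT proteins such as STAT2. A complex that holds STAT2 and IRF9 enters the nucleus and binds the interferon-stimulated response element in the promoters of the responding genes. Their products sense viral RNA, block viral translation, cut RNA or tag proteins with ISG15, and some, such as USP18, dampen the signal again. Macrophages, endothelial cells and fibroblasts of the heart can respond as well as cardiomyocytes.

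The response element can be looked for without the expression data, so its search is described first, though the stretches printed below were chosen by RNA. RefSeq's promoter table (GRCm38.p6) runs from 250 bases before to 50 bases after each gene start and held an entry for 24 of the 34 members. The core of the element was searched as 2 copies of GAAA with any 2 bases between them, on both strands (TTTC on the other strand), and overlapping matches were counted. It was found for 14 of these 24 members (58.3%), and for 1079 of all 27025 genes in the table (3.99%, or 3.44% of the 32851 promoters). The gamma-activated site, searched as TTCNNNGAA, a palindrome that reads the same on both strands, was found for 7 of the 24 members (29.2%) and for 9.55% of all genes (8.30% of promoters). A match is a description of these letters and not a measured binding site. The stretches below are the cores that lie before the gene start in the members whose RNA was higher in both KO libraries than in both WT libraries, followed by Rsad2, the member whose RNA was lower in both. Capitals mark each GAAA or TTTC of a core, and each sequence runs 5′ to 3′ on the strand of its gene.
Isg15: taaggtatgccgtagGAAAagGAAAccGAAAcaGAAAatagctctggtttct
Bst2: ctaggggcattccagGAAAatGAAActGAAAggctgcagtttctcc
Ifit1: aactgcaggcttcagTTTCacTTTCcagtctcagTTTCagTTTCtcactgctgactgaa
Ifit3: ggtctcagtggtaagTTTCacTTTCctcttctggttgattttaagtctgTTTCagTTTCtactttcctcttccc
Ifit3b: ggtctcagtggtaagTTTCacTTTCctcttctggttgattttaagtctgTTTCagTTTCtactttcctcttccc
Oas1a: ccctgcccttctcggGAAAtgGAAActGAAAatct
Gbp2: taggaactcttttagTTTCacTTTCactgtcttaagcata
Rsad2: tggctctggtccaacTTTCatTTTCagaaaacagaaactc

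In GRCm38.p6 these stretches lie at chr4:156200860-156200911 (minus strand) for Isg15, chr8:71537572-71537617 (minus) for Bst2, chr19:34640770-34640828 (plus) for Ifit1, chr19:34583358-34583431 (plus) for Ifit3 and chr19:34607754-34607827 (plus) for Ifit3b. Those of Oas1a, Gbp2 and Rsad2 lie at chr5:120907526-120907560 (minus), chr3:142620589-142620628 (plus) and chr12:26456548-26456587 (minus). Isg15 held 3 overlapping cores, a run of GAAA repeats that starts 78 bases before the gene start. The promoters of Ifit3 and Ifit3b share an identical run of 169 bases that holds both cores, so the printed stretches of this pair of neighbouring genes are the same. The cores of Ifitm3, Ddx58 and Ifih1 lay past the gene start. Gbp3, Gbp7 and Stat2 also held a core before it, but their RNA overlapped between the groups, so their stretches are not printed. RNA was higher in both KO libraries for 8 of the 14 members with a core and for 5 of the 10 members with a promoter entry and no core, both near the share of all genes tested (44.2%).

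**Figure D1:**
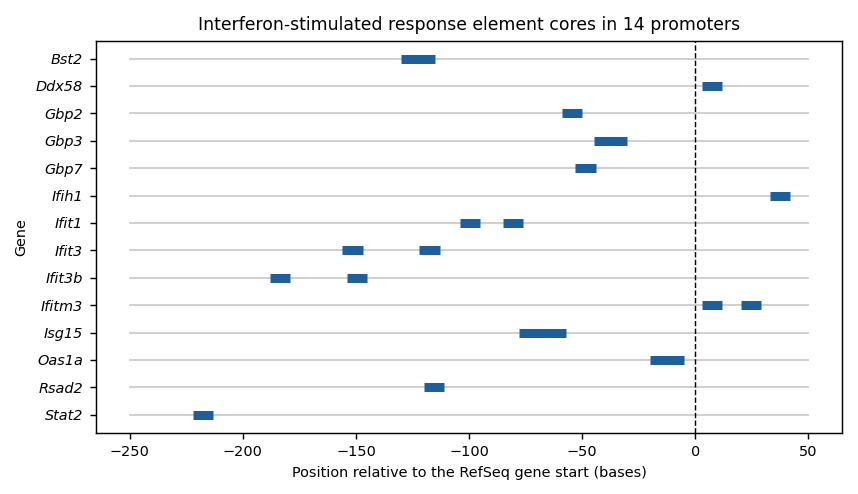
Position of each response element core in the promoters of the 14 members that hold one, in bases from the RefSeq gene start (x axis), with 1 gene a row. Blue bars mark the cores and grey lines the 300 bases searched; Stat2 held its core farthest from the start and Oas1a the nearest one before it.

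In the tables, footprint levels and RNA levels are in FPKM (a unit per length of gene and per mapped fragments of the library), and translation efficiency (TE) is the ratio of footprints to RNA. RNA itself was recovered as footprint FPKM divided by TE and is called the implied RNA level. Changes are log2 differences, KO minus WT, of log2(FPKM + 1) for footprints and of log2 values for RNA and TE, tested with limma. A change was called where the Benjamini-Hochberg adjusted p over all genes tested was below 0.05. Whole reads could not be recovered, so the depth behind a value is unknown. Nat10 itself had footprint levels of 77.3 and 73.9 FPKM in WT and 40.0 and 52.1 FPKM in KO, with adjusted p = 0.295. Its implied RNA was 7.02 and 8.34 FPKM in WT and 5.62 and 6.69 FPKM in KO. The KO libraries were thus lower in both, without passing the test.

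The interferon-induced genes were translated in the control heart. Of the 34 members, 25 had at least 10 FPKM of footprints in all 4 libraries, 5 were below 1 FPKM in at least 1 library, and Mx2 was below 1 FPKM in every library. By the mean of the WT libraries, 24 of the 33 members tested stood above the median of the 15031 genes tested in footprints. In RNA, over the smaller set of 12529 genes tested there, only 7 of 31 members did so. Their median TE in WT was 6.47, against 3.66 for all genes, and 26 of 31 members were above the latter. The members therefore combined low RNA levels with many footprints per RNA in these libraries. The levels spanned a wide range. Ifitm3, a membrane protein that blocks virus entry, and Ifi27, a protein of mitochondria and nuclear envelope, were the highest, at 334 ± 37.4 and 363 ± 181 FPKM of footprints in WT (SD, n = 2). Bst2 (tetherin, which holds budding virus at the cell surface) had 114 ± 40.2 FPKM and Isg15, the ubiquitin-like modifier, 82.1 ± 31.6 FPKM (SD, n = 2). At the other end, Mx1 was listed at 0 in replicate 1 of both groups. RefSeq annotates Mx1 and Mx2 as transcribed pseudogenes in this assembly.

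**Figure D2:**
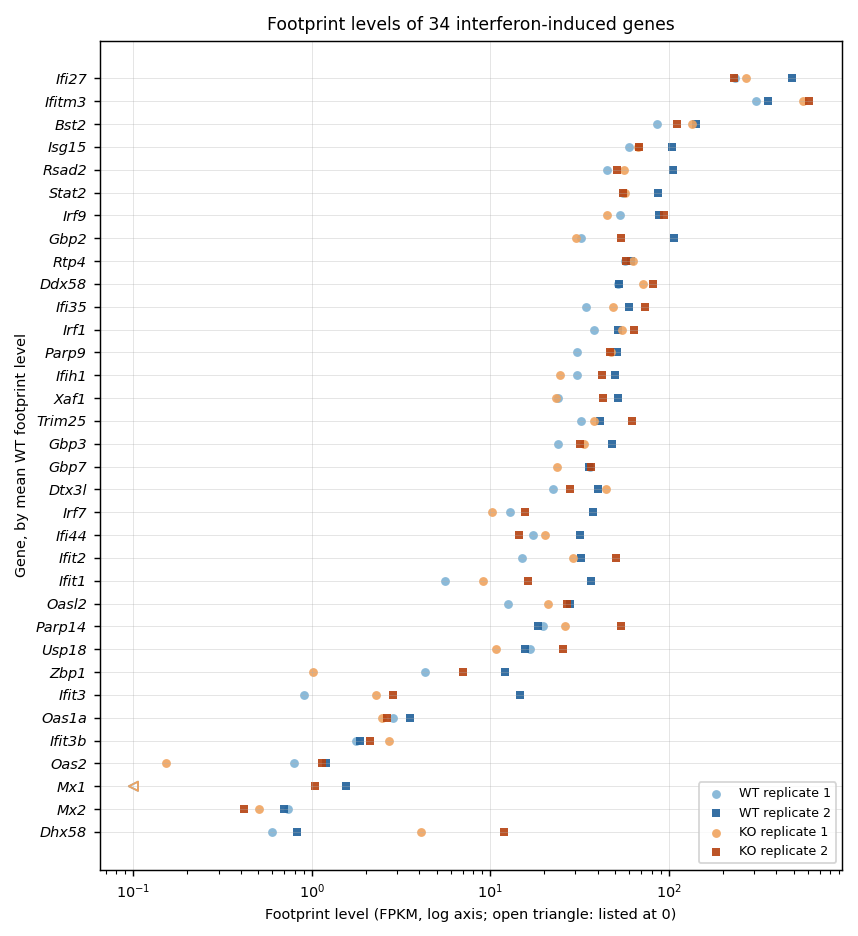
Footprint level in FPKM (x axis, log scale) of the 34 genes (rows, ordered by the WT mean) in each of the 4 libraries; blue marks are WT, orange and red marks KO, circles replicate 1 and squares replicate 2. WT replicate 2 is the highest library for 19 of the 33 members tested, and an open triangle marks Mx1 in the libraries where it is listed at 0. Among the 19 are Mx1 and Oas2, which passed the filter on low values only through replicate 2 libraries.

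Individual libraries stood apart in these genes, and the comparisons of the groups rest on them. In footprints, WT replicate 2 was above WT replicate 1 for 30 of the 33 members tested, against 39.8% of all genes. The median difference was 0.73 on the log2 scale for the members and -0.13 for all genes. In this contrast 11 members were over 2-fold higher in WT replicate 2, against 6.65% of all genes. Mx1 and Oas2 passed the filter on low values (at least 1 FPKM in 2 libraries) only through replicate 2 of both groups. Their direction was thus set by the filter, and they add nothing to these counts. Ifit3 footprints were at 0.900 and 14.7 FPKM in the WT pair, a ratio of 16.3. Ifit1 had 5.58 and 36.7 FPKM, Gbp2 32.1 and 107 FPKM and Irf7 12.9 and 37.5 FPKM. The implied RNA of the same genes did not share this gap: the ratio of WT replicate 2 to replicate 1 was 1.12 for Ifit3, 0.96 for Ifit1, 1.00 for Gbp2 and 0.91 for Irf7. Over the 31 members with RNA the median difference of the WT pair was 0.09, against 0.12 for all genes, and 2 members were over 2-fold higher (3.2% of all genes).

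The KO pair showed the reverse arrangement. In implied RNA, KO replicate 2 was above KO replicate 1 for 26 of 31 members, against 46.2% of all genes, with a median difference of 0.68 for the members and -0.06 for all genes. Here 9 members were over 2-fold higher in KO replicate 2, against 5.38% of all genes. Gbp7, a guanylate-binding GTPase, had 1.96 and 6.603 FPKM of RNA in the KO pair, and Stat2 had 3.32 and 7.77 FPKM. Footprints of the KO pair differed by a median of 0.34 for the members and 0.25 for all genes, and 6 members were over 2-fold higher in replicate 2 (14.4% of all genes). Mx1 is among these 6, and the filter set its direction. So the library in which the members read highest was WT replicate 2 in footprints (19 of 33 members, 13.4% of all genes) and KO replicate 2 in RNA (23 of 31 members, 23.9% of all genes). Mx1 and Oas2 are among the 19, and after the filter they could be highest in footprints only in a replicate 2 library. Relative to the median of all genes, the members' median deviation was 0.56 in footprints of WT replicate 2 and between -0.34 and -0.09 in the other 3 libraries. In RNA it was 0.45 in KO replicate 2 and between -0.25 and -0.15 in the others.

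**Figure D3:**
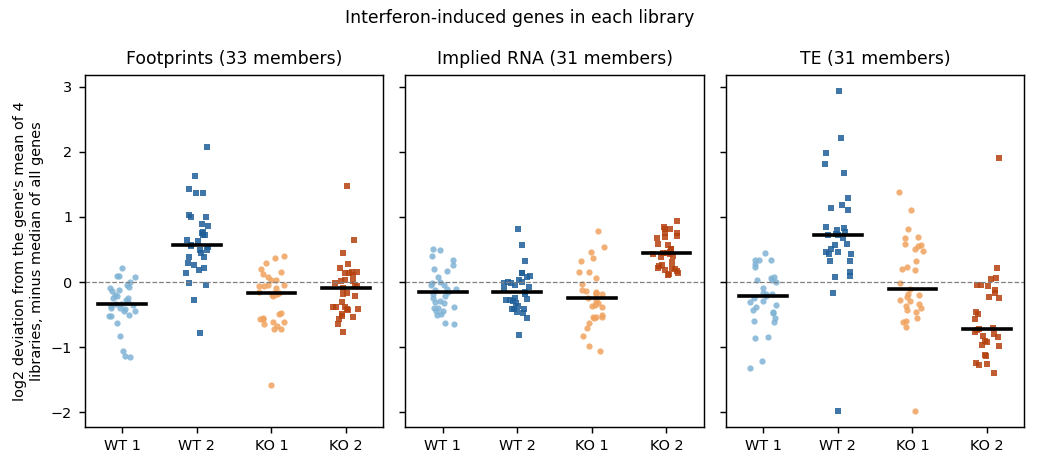
For each library, the log2 deviation of every member from its own mean over the 4 libraries, less the median deviation of all genes (y axis), for footprints, implied RNA and TE; points are genes and black bars are the members' medians. The bar stands at 0.56 for footprints in WT replicate 2 and at 0.45 for RNA in KO replicate 2, and in TE at 0.72 in WT replicate 2 and -0.72 in KO replicate 2.

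In footprints none of the 33 members passed the test between KO and WT, and the lowest adjusted p among them was 0.187 (limma). Over all genes 57 of 15031 were called (0.379%). At an unadjusted p below 0.05, 2 members, Ifitm3 and Dhx58, were higher in KO (13.5% of all genes) and 0 were lower (3.8% of all genes). Dhx58 passed the filter on low values (at least 1 FPKM in 2 libraries) only through KO. Its rise was thus set by the filter and adds nothing to this count or to the counts of members above. Both KO libraries stood above both WT libraries for 6 members (39.5% of all genes) and below for 1, Oas1a (12.1% of all genes). After median-ratio scaling of the libraries these counts were 4 members above (23.9% of all genes) and 4 below (23% of all genes). The members' median change was -0.08 on the log2 scale while the median of all genes was 0.36, and 25 of 33 members lay below the latter. Scaling moved the median of all genes to 0.03 and that of the members to -0.42. Without WT replicate 2 the members' median was 0.39 against 0.26 for all genes, so the members then lay above the rest and the direction turned.

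Among the sensors of foreign nucleic acid, Dhx58 (LGP2, a helicase that regulates the RNA sensors) had the highest footprint change of all members. Its footprint levels were 0.595 and 0.825 FPKM in WT and 4.09 and 11.9 FPKM in KO, a log2 change of 2.25. Both WT values lay below 1 FPKM, so Dhx58 passed the filter on low values (at least 1 FPKM in 2 libraries) only through the KO libraries and had to be higher there; its change is a description. Ddx58 (RIG-I, which senses viral RNA ends) had 51.8 and 52.5 FPKM in WT and 71.4 and 81.1 FPKM in KO, without overlap (39.5% of all genes stood above in KO). Ifih1 (MDA5, a sensor of long double-stranded RNA) had 30.7 and 49.8 FPKM in WT and 24.6 and 42.0 FPKM in KO, and the groups overlapped. Zbp1, a sensor of Z-form nucleic acid, had the lowest footprint change of all members, -1.05, with 4.30 and 12.1 FPKM in WT and 1.02 and 6.998 FPKM in KO. Its groups overlapped too, adjusted p was 0.544, and the change was -0.057 if KO replicate 1 was left out and -2.04 if KO replicate 2 was.

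Among the effectors, Ifitm3 had 307 and 360 FPKM of footprints in WT and 565 and 608 FPKM in KO, a log2 change of 0.81 ± 0.22 (SE), 1.76-fold on that scale, with adjusted p = 0.187. The groups did not overlap. Leaving out any 1 library kept the change between 0.70 and 0.93, and median-ratio scaling lowered it to 0.44, with adjusted p = 0.420. Parp14, an ADP-ribosyltransferase, had 19.7 and 18.4 FPKM in WT and 26.2 and 53.8 FPKM in KO, a change of 0.94 with adjusted p = 0.345, or 0.44 with KO replicate 2 left out and 1.45 with KO replicate 1 left out. Ifit2, which binds viral RNA and restrains its translation, had 15.1 and 32.2 FPKM in WT and 29.0 and 50.6 FPKM in KO, a change of 0.77 with adjusted p = 0.462, and its groups overlapped. Leaving out WT replicate 1 gave 0.25, and leaving out WT replicate 2 gave 1.29. The next lowest changes after Zbp1 were in genes with their highest value in WT replicate 2. Irf7, the factor that amplifies interferon production, had a change of -0.76, with 10.2 and 15.7 FPKM in KO beside the WT values above. Without WT replicate 2 its change was -0.021. Ifit3, which stabilises IFIT1, had 2.28 and 2.83 FPKM in KO and a change of -0.62, which was 0.90 without WT replicate 2. Gbp2, a GTPase that attacks pathogen vacuoles, had 30.2 and 53.7 FPKM in KO and a change of -0.53, which was 0.32 without that library.

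Of the 4 transcription factors of the response, 1 had groups that did not overlap in footprints (39.5% of all genes are above and 12.1% below). Irf9 had 53.5 and 88.4 FPKM in WT and 45.2 and 93.4 FPKM in KO, and Stat2 had 55.3 and 87.0 FPKM in WT and 57.1 and 55.3 FPKM in KO. Both overlapped between the groups, but after median-ratio scaling Stat2, like Irf7, stood lower in both KO libraries. Irf1, which is induced early by interferon gamma, had 38.3 and 51.8 FPKM in WT and 54.6 and 64.1 FPKM in KO without overlap, though the groups overlapped after scaling. Isg15 had 59.7 and 104 FPKM in WT and 67.0 and 68.0 FPKM in KO, both KO values inside the WT range. Bst2 had 85.7 and 143 FPKM in WT and 136 and 112 FPKM in KO, also inside the WT range. Rsad2 (viperin, an enzyme that makes a chain-terminating nucleotide) had 45.3 and 105 FPKM in WT and 56.0 and 51.1 FPKM in KO. Ifi27 had 235 and 491 FPKM in WT against 270 and 233 FPKM in KO. For this last gene, as for Rsad2, the high value was that of WT replicate 2.

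The other members had footprints as follows. In the IFIT family, Ifit3b had 1.77 and 1.86 FPKM in WT and 2.699 and 2.12 FPKM in KO, without overlap before scaling and with overlap after it. Ifit1 had 9.14 and 16.3 FPKM in KO, inside its WT range. In the OAS family, Oas1a had 2.86 and 3.55 FPKM in WT and 2.48 and 2.64 FPKM in KO. Before scaling it was the only one of the 33 members tested with both KO libraries below both WT libraries. Oasl2 had 12.6 and 27.9 FPKM in WT and 21.1 and 26.9 FPKM in KO, and Oas2 lay between 0.152 and 1.20 FPKM. Of the GTPases, Gbp3 and Gbp7 lay between 23.8 and 48.3 FPKM, with overlapping groups, though Gbp7 stood lower in both KO libraries after scaling. Mx1 had 1.55 FPKM in WT replicate 2 and 1.04 FPKM in KO replicate 2. Mx2, which was not tested, had 0.735 and 0.701 FPKM in WT and 0.505 and 0.415 FPKM in KO, lower in both KO libraries and below 1 FPKM throughout. Usp18 had 16.7 and 15.7 FPKM in WT and 10.8 and 25.5 FPKM in KO, and Trim25, Dtx3l and Parp9 lay between 22.3 and 62.0 FPKM. Rtp4, a chaperone of receptors, had 56.8 and 61.4 FPKM in WT and 63.3 and 57.4 FPKM in KO. Ifi35, Ifi44 and Xaf1 lay between 14.6 and 73.2 FPKM, each with its groups overlapping.

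The implied RNA levels were compared next. None of the 31 members passed the test (718 of 12529 genes were called, 5.73%), but the lowest adjusted p was 0.054, for Isg15. At an unadjusted p below 0.05, 7 members were higher in KO (21.1% of all genes), a share near that of all genes, and 0 were lower (7.17% of all genes). Both KO libraries stood above both WT libraries for 16 members, not far from the share of all genes (44.2%), and below for 1, Rsad2 (18.6% of all genes). After median-ratio scaling 10 members stood above, near the share of all genes (30.6%), and 1 below (30.6% of all genes). The change was positive for 26 members (64.6% of all genes) and negative for 5, or 21 and 10 after scaling, where the share of all genes was not counted. The members' median was 0.49 against 0.22 for all genes, and scaling moved the latter to 0.0043 and the members' median to 0.28. Without KO replicate 2 the members' median was 0.19 against 0.26 for all genes, so this difference turned its direction as well.

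The 7 members with an unadjusted p below 0.05 were Isg15, Ifitm3, Ifi27, Bst2, Ifit2, Ifit3 and Irf1. Isg15 had 3.41 and 4.63 FPKM of RNA in WT and 9.55 and 8.40 FPKM in KO, a log2 change of 1.17 ± 0.27 (SE), 2.25-fold, with adjusted p = 0.054. Ifitm3 had 82.2 and 92.3 FPKM in WT and 248 and 155 FPKM in KO, a change of 1.17 ± 0.27 (SE) with adjusted p = 0.057. Ifi27 had 21.9 and 26.9 FPKM in WT and 51.3 and 42.1 FPKM in KO, 1.91-fold higher with adjusted p = 0.060. In all 3 the KO values stood clear of the WT values, and KO replicate 1 was the higher of the KO pair, unlike most members. Bst2 had 13.97 and 20.9 FPKM in WT and 34.6 and 34.7 FPKM in KO, 2.03-fold higher with adjusted p = 0.064. Irf1 had 5.30 and 6.88 FPKM in WT and 10.9 and 9.67 FPKM in KO, with adjusted p = 0.111. Bst2 and Irf1 were thus also high in both KO libraries. The calls shifted with the libraries kept: Isg15 and Bst2 passed without WT replicate 2, Ifit2, Ifitm3 and Irf7 without KO replicate 1, and Bst2, Ifi27, Ifitm3, Isg15 and, as a fall, Rsad2 without KO replicate 2. None passed without WT replicate 1, where the lowest adjusted p was 0.272.

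The IFIT genes, whose proteins bind viral RNA, were higher in both KO libraries in all 4 members (44.2% of all genes), and in 3 of the 4 after scaling (30.6% of all genes), Ifit3b being the exception. Ifit2 had 3.94 and 4.19 FPKM of RNA in WT and 6.66 and 10.01 FPKM in KO, with adjusted p = 0.083. Ifit3 had 1.88 and 2.11 FPKM in WT and 3.53 and 4.90 FPKM in KO, with adjusted p = 0.085. Ifit1 had 0.788 and 0.758 FPKM in WT and 1.06 and 2.22 FPKM in KO, and Ifit3b had 0.427 and 0.397 FPKM in WT and 0.505 and 1.02 FPKM in KO. KO replicate 2 was the highest library for all 4. Ifit3 and Ifit3b are near-identical copies, and reads that fit both may have been split or dropped, so their values are uncertain. The same holds for Oas1a among its tandem copies and for the Gbp cluster. Oas1a, an antiviral oligoadenylate synthetase, had 0.706 and 0.619 FPKM of RNA in WT and 1.01 and 1.74 FPKM in KO.

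A few members had RNA changes below 0. Rsad2 had 8.37 and 8.05 FPKM in WT and 3.72 and 7.69 FPKM in KO, a change of -0.62 with adjusted p = 0.304, or -0.093 with KO replicate 1 left out and -1.14 with KO replicate 2 left out. Stat2 (6.06 and 5.30 FPKM in WT) had a change of -0.16, with KO values on either side of the WT pair. Ddx58 had 7.46 and 5.84 FPKM in WT and 4.76 and 7.69 FPKM in KO, and Dhx58 had 0.808 and 2.18 FPKM in WT and 0.968 and 1.55 FPKM in KO. The groups overlapped for Stat2, Ddx58 and Dhx58. The RNA of the remaining ubiquitin-like system, Usp18 (the ISG15 protease), Trim25 (a ubiquitin ligase of the RIG-I pathway), Dtx3l and Parp9 (partners in one ligase complex), lay between 1.42 and 16.0 FPKM, and each of the 4 was highest in KO replicate 2. Of the transcription factors beside Irf1, Irf7 had 4.01 and 3.67 FPKM of RNA in WT and 4.17 and 9.39 FPKM in KO, and Irf9 had 8.71 and 9.77 FPKM in WT and 9.84 and 12.4 FPKM in KO. Both stood higher in KO before scaling and overlapped after it. Gbp2 (3.999 and 4.003 FPKM in WT, 4.93 and 7.89 FPKM in KO), Parp9 and Usp18 did the same, while Ifi35 (6.81 and 9.08 FPKM in WT, 11.5 and 10.7 FPKM in KO) stayed above after scaling. Gbp3, Oasl2, Rtp4 and Xaf1 lay between 3.74 and 12.7 FPKM, and Ifi44, Ifih1, Parp14 and Oas2 between 0.596 and 5.19 FPKM, all with overlapping groups. Mx2 lay between 0.453 and 0.945 FPKM, Mx1 and Zbp1 had no RNA value in at least 1 library, and these 3 were not tested.

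**Figure D4:**
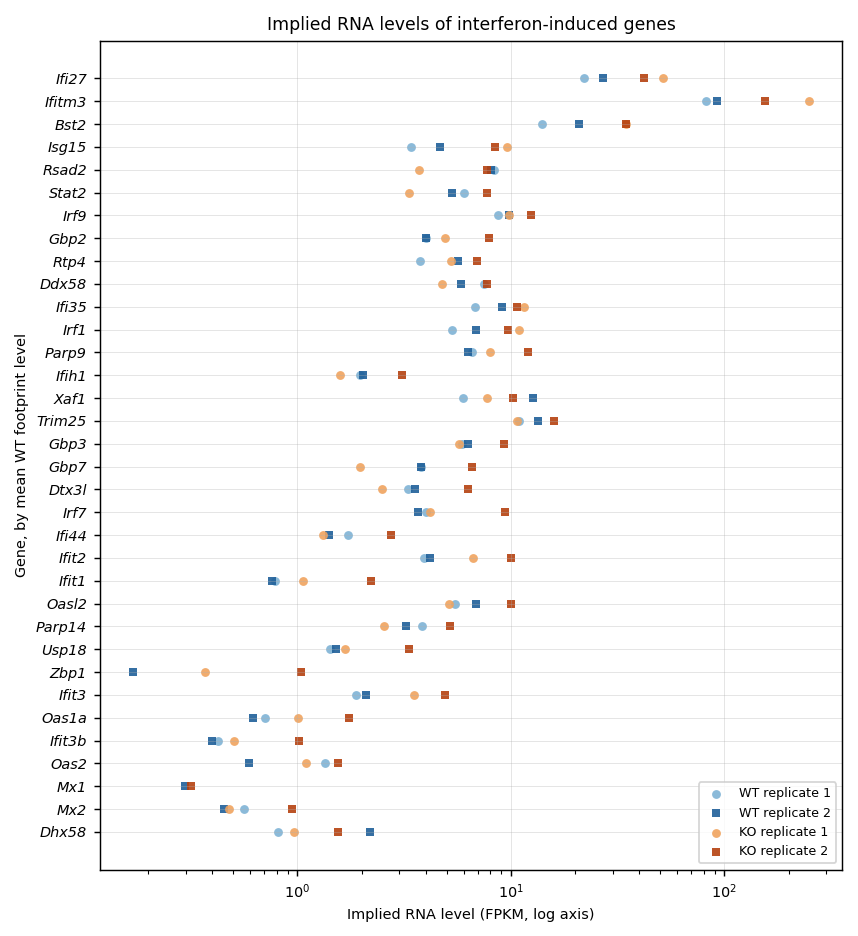
Implied RNA level in FPKM (x axis, log scale) of the members (rows, in the order of the footprint plot) in each library, marked as there; libraries with no TE have no mark. KO replicate 2 is the highest library for 23 of the 31 members tested, while Isg15, Ifitm3 and Ifi27 are highest in KO replicate 1.

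TE shares its values with both other measures, so it adds no independent count. Whether the RNA behind it came from the same hearts as the footprints is not stated in the labels, so footprints and RNA of a like-numbered library may not be of 1 heart. None of the 31 members passed in TE, and neither did any other gene (0 of 12529, 0%, limma; 759 genes had an unadjusted p below 0.05). At that level 1 member, Dhx58, was higher in KO (4.68% of all genes) and 3 were lower (1.38% of all genes). Both KO libraries stood above both WT libraries for 4 members, Dhx58 among them (24% of all genes), and below for 9 (12% of all genes). Dhx58 passed the filter only through KO, so it adds nothing to these counts. The members' median change was -0.36 against 0.15 for all genes, and 24 of 31 changes were negative, while 59.5% of all genes had a positive change. For 22 members RNA was higher and TE lower in KO, and for 13 the RNA change was positive while the footprint change was negative. These counts were not made over all genes. Because TE is footprints divided by this RNA, a higher RNA by itself lowers TE, so they are descriptions. Leaving out 1 library at a time left the difference between the medians at -0.97 to -0.10, the last without WT replicate 2.

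Isg15 had TE values of 17.5 and 22.5 in WT and 7.01 and 8.09 in KO, a log2 change of -1.40 ± 0.43 (SE) with adjusted p = 0.785. Ifi27 had 10.7 and 18.2 in WT and 5.26 and 5.53 in KO, a change of -1.37 ± 0.46 (SE) with adjusted p = 0.806. Oas1a had 4.06 and 5.74 in WT and 2.45 and 1.51 in KO, with adjusted p = 0.806. In these 3 genes the groups stood apart, as they did in Irf7, with 3.21 and 10.2 in WT and 2.45 and 1.67 in KO. Oas2, a further 2-5A synthetase at trace levels, had 0.586 and 2.00 in WT and 0.139 and 0.734 in KO, with overlap. Ifit3 had 0.480 and 6.97 in WT and 0.647 and 0.577 in KO, a change of -1.58 that was 0.35 without WT replicate 2. In the other direction, Dhx58 had 0.736 and 0.378 in WT and 4.22 and 7.73 in KO, a change of 3.44, again in a gene that the KO footprints alone brought past the filter. Parp14 had 5.14 and 5.74 in WT and 10.3 and 10.4 in KO. Ddx58 had 6.94 and 8.99 in WT and 15.0 and 10.5 in KO, and Trim25 had 2.97 and 3.07 in WT and 3.54 and 3.88 in KO. Scaling made Ddx58 and Trim25 overlap and left Dhx58 and Parp14 above.

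**Figure D5:**
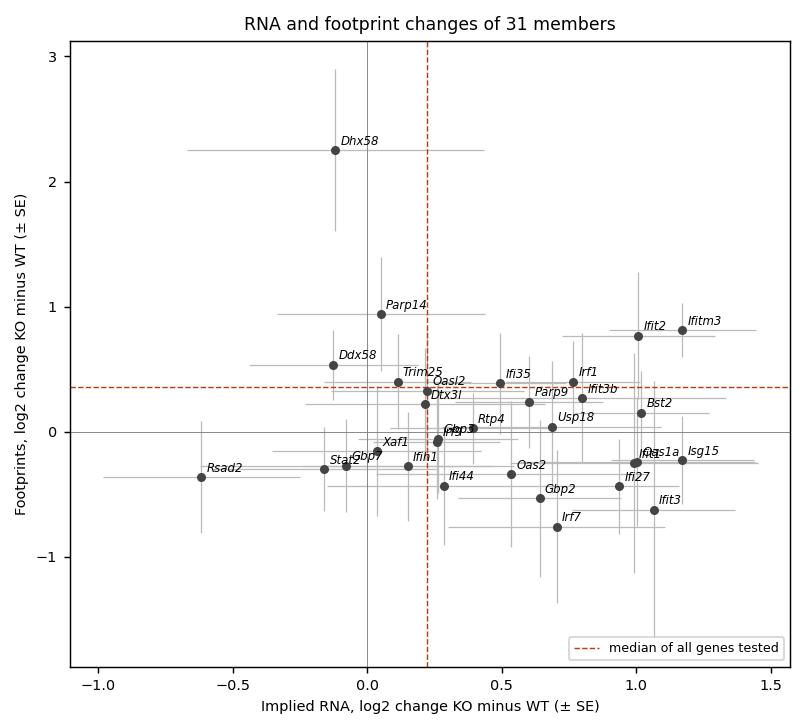
Change in implied RNA (x axis) against change in footprints (y axis), both log2 KO minus WT with SE bars, for the 31 members with both; dashed lines are the medians of all genes tested, 0.22 and 0.36. Isg15, Ifi27 and Ifit3 lie to the right of the RNA line and below the footprint line, Ifitm3 and Ifit2 lie beyond both, and Dhx58 stands apart at the top.

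The rest of the pathway was read from lists of named genes. All 21 interferon genes of the list, including Ifnb1 and Ifng, were listed at 0 in footprints in all 4 libraries. No gene of the receptor and JAK-STAT list (9 tested) was called in footprints, RNA or TE (0.379%, 5.73% and 0% of all genes). Ifngr1, the ligand-binding chain of the interferon gamma receptor, had the highest mean footprint level over the 4 libraries in that list, 248 and 227 FPKM in WT and 303 and 574 FPKM in KO, while Jak1 was higher in both WT libraries (302 and 286 FPKM). In RNA, the largest change upward was that of Ifnar2 (0.58) and the largest downward that of Il10rb (-0.97, adjusted p = 0.084).

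Of the 16 genes of the induction pathway, Tmem173 (STING, the adaptor that relays cytosolic DNA to interferon induction) rose in RNA, from 3.90 and 3.94 FPKM in WT to 9.88 and 8.98 FPKM in KO, 2.40-fold with adjusted p = 0.039. It was the only call of that list, 1 of 16 in RNA, near the share of all genes called (5.73%). Footprints of Tmem173 were 72.4 and 67.2 FPKM in WT and 148 and 113 FPKM in KO with adjusted p = 0.228. Traf3 had the lowest footprint change of the list (-0.73) and Traf6 the lowest RNA change (-0.13). None of the 9 negative regulators tested was called. Among them Irf2 had the highest footprint level (107 and 110 FPKM in WT, 159 and 149 FPKM in KO). Socs3 had 0.250 and 1.57 FPKM in WT and 40.5 and 3.12 FPKM in KO, so its footprint change rests on KO replicate 1. Ptpn6 had the lowest footprint change (-0.55), and the RNA changes ran from -0.55 for Pias1 to 2.08 for Otulin (adjusted p = 0.061).

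Among 66 further interferon-induced genes outside the members, 60 were tested in footprints and 56 in RNA. None was called in footprints or TE (0.379% and 0% of all genes). In RNA 2 of 56 were called, both higher in KO, against 5.73% of all genes called in either direction. The list was thus not called more often than genes at large. Ifi27l2a had 8.41 and 13.8 FPKM of RNA in WT and 34.8 and 34.3 FPKM in KO, 3.20-fold with adjusted p = 0.032. Cxcl10, a chemokine that draws lymphocytes, had 0.186 and 0.410 FPKM in WT and 1.64 and 1.55 FPKM in KO, 5.76-fold with adjusted p = 0.047. Each of the calls of Tmem173, Ifi27l2a and Cxcl10 was lost without WT replicate 1, at adjusted p between 0.052 and 0.086. That of Tmem173 was also lost without WT replicate 2 (0.056) and that of Cxcl10 without KO replicate 1 (0.085). Tmem173 and Cxcl10 had adjusted p = 0.052 after median-ratio scaling, and Cxcl10 had 0.051 at a minimum of 5 FPKM of footprints and 0.061 at a minimum of 1 FPKM of RNA. Lgals3bp had the highest footprints of the list (359 and 575 FPKM in WT, 457 and 664 FPKM in KO). Footprint changes ran from -2.46 for Nlrc5 (2.18 and 10.5 FPKM in WT, 0.207 FPKM and listed at 0 in KO, a gene that passed the filter on low values only through WT) to 1.48 for Ifitm2. The library pattern extended to this list: 43 of 60 were higher in WT replicate 2 than in replicate 1 in footprints, and 47 of 56 were higher in KO replicate 2 than in replicate 1 in RNA.

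Markers of other cell types differed along with these values, and their part in the results was not tested. All 15 macrophage markers had more footprints in WT replicate 2 than in WT replicate 1, with a median log2 difference of 0.70, while 6 of 14 did so in RNA. Their summed footprints were 672 and 1138 FPKM in WT and 1122 and 2450 FPKM in KO. Their summed RNA was 140 and 132 FPKM in WT and 313 and 245 FPKM in KO, 11 of 14 changes were positive, and Lyz2 (2.69-fold, adjusted p = 0.030) and C1qa (2.06-fold, adjusted p = 0.046) rose. The call of C1qa was lost without WT replicate 1 (adjusted p = 0.230) or 2 (0.127), and after median-ratio scaling (0.058), and that of Lyz2 without WT replicate 2 (0.054). Between the KO libraries, 6 of 14 macrophage markers were higher in replicate 2 in RNA, where 26 of 31 members were. In footprints of that pair, 13 of 15 macrophage markers and 23 of 33 members were higher in replicate 2 (64.8% of all genes). Of the monocyte and neutrophil markers Plac8 and Retnlg rose in RNA, the latter not without WT replicate 1 (adjusted p = 0.089) or KO replicate 1 (0.054), after scaling (0.057), at 5 FPKM of footprints (0.052) or at 1 FPKM of RNA (0.062). In RNA 6 of 6 were higher in KO replicate 2 than in replicate 1, summed RNA was 16.2 in both WT libraries and 16.7 and 37.7 FPKM in KO, and Ly6g was listed at 0. Lymphocyte markers summed to 29.1 and 20.2 FPKM of footprints in WT and 28.9 and 16.1 FPKM in KO, with 2 of 8 higher in WT replicate 2. The dendritic cell list holds Bst2, a member, and its plasmacytoid marker Siglech was listed at 0 in all 4 libraries, as was Cd209a.

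Endothelial markers summed to 6770 and 6695 FPKM of footprints in WT and 8661 and 10849 FPKM in KO, and fibroblast markers to 12688 and 10597 FPKM in WT and 29691 and 40974 FPKM in KO. Of the 10 fibroblast markers, 7 had positive and 3 negative RNA changes, and Tcf21 and Postn rose. In footprints 2 of 10 fibroblast and 3 of 12 endothelial markers were higher in WT replicate 2 than in replicate 1. Mural cell markers summed to 5093 and 5152 FPKM in WT and 4026 and 3837 FPKM in KO, although 5 of the 7 changes were positive with a median of 0.46, and erythroid markers to 1250 and 1028 FPKM in WT and 1497 and 726 FPKM in KO. The labelled cardiomyocytes were present throughout: their 10 markers summed to 301659 and 348449 FPKM of footprints in WT and 203592 and 209287 FPKM in KO, with all 10 changes negative and none called.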

How the data were processed

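Footprints of 2 WT and 2 KO libraries of mouse heart were analysed from 2 tables deposited by the authors for 55382 genes. The first holds footprint FPKM and the other TE, a ratio made by the authors. The submitters' processing notes name the genome GRCm38 (mm10) and the tools STAR 2.7.4a, Bowtie 1.3.1, Cufflinks 2.2.1, HTSeq 0.13.5, FastQC 0.11.9 and cutadapt 3.7; order, settings, strand, the region counted and the making of the RNA libraries were not given in the sources used here. FPKM over TE came out with no more than 6 significant digits for 59296 of 59296 quotients (tolerance 1e-10, relative) and served as the RNA level. TE values of 0 stood beside footprints above 0 for 1516 to 1987 genes a library and were taken as missing. Genes of at least 1 FPKM in at least 2 libraries (15031) were tested as log2(FPKM + 1), which understates changes of low genes, and RNA and TE as log2 for the 12529 genes with TE in all 4 libraries. The test was limma 3.58.1 in R 4.3.3 (lmFit, eBayes with trend), two-sided, without covariates, and its code was tested on simulated data. With 2 against 2 an exact permutation test cannot go below 0.333. The members and lists were chosen with earlier results of these data known, and no list was tested as a set. All members are named by role; full values are given for the 6 with the highest footprints, the 4 largest changes each way in each measure and near-identical copies. Named pathway genes are those called and, by list, the highest footprints and the largest changes in footprints and RNA; some of these genes are not reported here. Full values of further members, and the called marker genes, were chosen after their values were seen. Promoter sequences are RefSeq's (GRCm38.p6; all 34 members matched by symbol).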

Additional observations from a re-analysis of the deposited data

How the results depend on the processing

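No member was called in footprints under any alternative run. Members called in RNA numbered 1 without small RNA genes, unnamed models and pseudogenes (790 of 11928 genes called). They numbered 1 with an RNA level of at least 1 FPKM in 2 libraries (719 of 11645 genes), Isg15 both times. With the replicate number as a block they numbered 3 (Bst2, Ifitm3, Isg15), beside 1429 of 12529 genes. Calls of members in RNA with 1 library left out are not given, because a lone library then stands for a group. Members called in TE numbered 1 with the replicate block (178 of 12529 genes). It was Dhx58, which passed the filter on low values only through the KO libraries, so this call is a description. The median member change minus that of all genes ran from -0.80 to 0.13 in footprints (0.13 without WT replicate 2), from -0.068 to 0.60 in RNA (-0.068 without KO replicate 2) and from -0.97 to -0.10 in TE when 1 library was left out. Among the members whose change is printed, those that turned then ran from -1.39 to 0.32 for Gbp2 and -2.15 to 0.90 for Ifit3 in footprints, from -0.47 to 0.22 for Ddx58, -0.83 to 0.60 for Dhx58 and -0.77 to 0.45 for Stat2 in RNA, and from -3.51 to 0.35 for Ifit3 in TE. Over all members tested, positive footprint changes numbered 15 (71.1% of all genes) and 26 without WT replicate 2, and positive RNA changes 26 (64.6% of all genes) and 18 without KO replicate 2. The cause was not tested. Without the variance trend the RNA calls of Tmem173, Ifi27l2a, Cxcl10, Lyz2, C1qa, Plac8, Retnlg, Tcf21 and Postn were lost, at adjusted p of 0.050 to 0.092. Genes called in footprints (57) numbered 221 without small RNA genes, unnamed models and pseudogenes, 8 without a filter, 36 without the variance trend, 34 with a pseudocount of 0.1, 143 with the replicate block and 0 to 0 with 1 library left out. Those in RNA (718) numbered 67 without the trend, 1429 with the block and 704 to 3742 with 1 library left out. Those in TE (0) numbered 1 without small RNA genes, unnamed models and pseudogenes, 1 at 5 FPKM, 1 without the trend, 178 with the block and 0 to 33. Same-numbered libraries deviated with correlations of -0.056 in footprints, -0.22 in RNA and -0.018 in TE. The labels do not pair them, and whether they share more than a number is not stated. A lone library left in a group is assumed to vary like the other group. Depth is unknown, so values below 1 FPKM may rest on few footprints.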
